A study of Mus musculus with 2 samples.

Results

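The potassium channel genes described here are those whose symbol begins with Kcn followed by letters and a digit and that have at least 1 transcript of type protein_coding in GENCODE M21. This rule gave 93 of the 55536 genes in the tables, of which 77 encode alpha subunits and 16 encode auxiliary subunits. The rule used no measured value. Levels came from total RNA sequencing of whole heart in 1 group of 2 male B6CASTF1/J mice aged 2 months, an F1 cross, with 300 ng of RNA and added spike-in RNA for each library. The labels give the mice no treatment or engineered allele and no control group, so no contrast between conditions and no p-value exists. The label numbers the males separately but gives both the same donor entry, so the spread reported is that between 2 libraries read as 2 animals. The files do not separate the alleles of the parental strains.

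Potassium channels let potassium leave or enter the cell across its membrane, and in heart muscle they set the resting potential and bring the action potential back to rest. The family is split by structure: voltage-gated (Kv) alpha subunits open on depolarisation, inward rectifiers (Kir) pass current best near rest, two-pore subunits carry background leak, and other subunits open on intracellular calcium or sodium. Silent alpha subunits form no channel alone and change the channels they join, and auxiliary subunits (KChIP, MinK, Kv beta and BK beta proteins) change the trafficking and gating of the alpha subunits.

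Both libraries held deep counts, with 39177981 expected counts in replicate 1 and 44544839 in replicate 2; an expected count is a read count in which reads that fit several transcripts are shared out. Potassium channel genes took 45362 and 55186 of these, which is 0.116% and 0.125%. The tissue label was checked against marker genes, with levels in TPM, a share of transcript molecules, corrected for transcript length and library depth. All 6 heart muscle markers (Tnnt2, Tnni3, Myh6, Actn2, Myl2 and Myl3) were at or above 1 TPM in both mice. They summed to 28029 ± 1867 TPM (SD, n = 2), a sum that does not separate ventricular from atrial muscle. Atrial muscle, endothelial, fibroblast, macrophage and pericyte or smooth muscle markers were all detected too, with sums between 34.6 and 1173 TPM. Pacemaker and conduction markers reached 8.46 ± 0.198 TPM with 2 of 5 detected, and neuron and Schwann cell markers reached 1.91 ± 0.148 TPM with 1 of 6 detected. In such whole tissue, fewer cells of a type and less RNA per cell cannot be told apart.

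Several of these genes make proteins that differ by alternative coding exons. The exons below were picked by hand from genes of the outward currents, and their shares are given with those genes. The use of other alternative exons was not measured. For Kcnip2 and Kcnd3 the capitals mark the alternative exon and the lower-case letters the 15 coding bases on either side. For Kcnh2 only the coding bases of the alternative first exon are shown, and the capitals mark its start codon. All were taken 5′ to 3′ from GENCODE M21 transcripts, with mm10 coordinates of the exon. Both Kcnip2 stretches are from Kcnip2-209, in which the 2 exons adjoin. The bases printed after the 96-base exon are therefore the start of the 54-base exon, which Kcnip2-202 lacks.
Kcnip2 96-base exon, chr19:45797091-45797186, minus strand: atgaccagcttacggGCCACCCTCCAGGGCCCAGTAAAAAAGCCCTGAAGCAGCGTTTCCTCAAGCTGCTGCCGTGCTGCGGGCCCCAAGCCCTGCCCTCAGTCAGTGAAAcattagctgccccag
Kcnip2 54-base exon, chr19:45796279-45796332, minus strand: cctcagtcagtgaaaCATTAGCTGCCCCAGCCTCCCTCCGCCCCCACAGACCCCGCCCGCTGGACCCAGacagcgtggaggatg
Kcnd3 57-base exon, chr3:105666962-105667018, plus strand: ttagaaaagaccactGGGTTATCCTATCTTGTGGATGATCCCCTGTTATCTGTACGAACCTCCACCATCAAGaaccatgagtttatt
Kcnh2 long-form first coding exon, chr5:24351208-24351283, minus strand: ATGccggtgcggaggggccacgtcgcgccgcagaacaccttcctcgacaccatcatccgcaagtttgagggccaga
Kcnh2 short-form first coding exon, chr5:24329165-24329272, minus strand: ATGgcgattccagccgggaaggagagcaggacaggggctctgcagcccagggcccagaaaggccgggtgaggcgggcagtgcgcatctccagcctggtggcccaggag
The first 3 exons have lengths divisible by 3, so their inclusion keeps the reading frame. Their GC content differed, at 62.5% and 74.1% for the Kcnip2 exons and 47.4% for the Kcnd3 exon.

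A small part of the family made up nearly all of its RNA. Of the 93 genes, 22 (23.7%) were detected, that is, at or above 1 TPM in both mice, against 50.2% of the 21808 other genes with a protein_coding transcript. Their median level was 0.125 TPM, against 1.15 TPM over those 21808 genes. Of 40 voltage-gated sodium and calcium channel genes, 14 (35.0%) were detected by the same threshold. All potassium channel genes together summed to 454 TPM in replicate 1 and 482 TPM in replicate 2 (468 ± 20.2, SD, n = 2), or 0.120 ± 0.00350% of the TPM of nuclear protein-coding genes. The first 3 genes, Kcnk3, Kcnip2 and Kcng2, held 51.1% of the summed TPM, the first 12 held 89.9%, and the 22 detected genes held 96.9%.

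By mean level, 11 genes stood at or above 10 TPM, 12 between 1 and 10 TPM, and 28 between 0.1 and 1 TPM. A further 29 genes were below 0.1 TPM but had counts, 16 of which had no more than 3 counts in either mouse. The remaining 13 had 0 expected counts in both libraries. For these, 3 counts, the upper limit that a count of 0 allows, correspond to at most 0.0943 TPM in replicate 1 and 0.0830 TPM in replicate 2, both for Kcna10. This limit and the intervals given further on cover counting error only, as the reads carry no molecular identifiers.

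**Figure D1:**
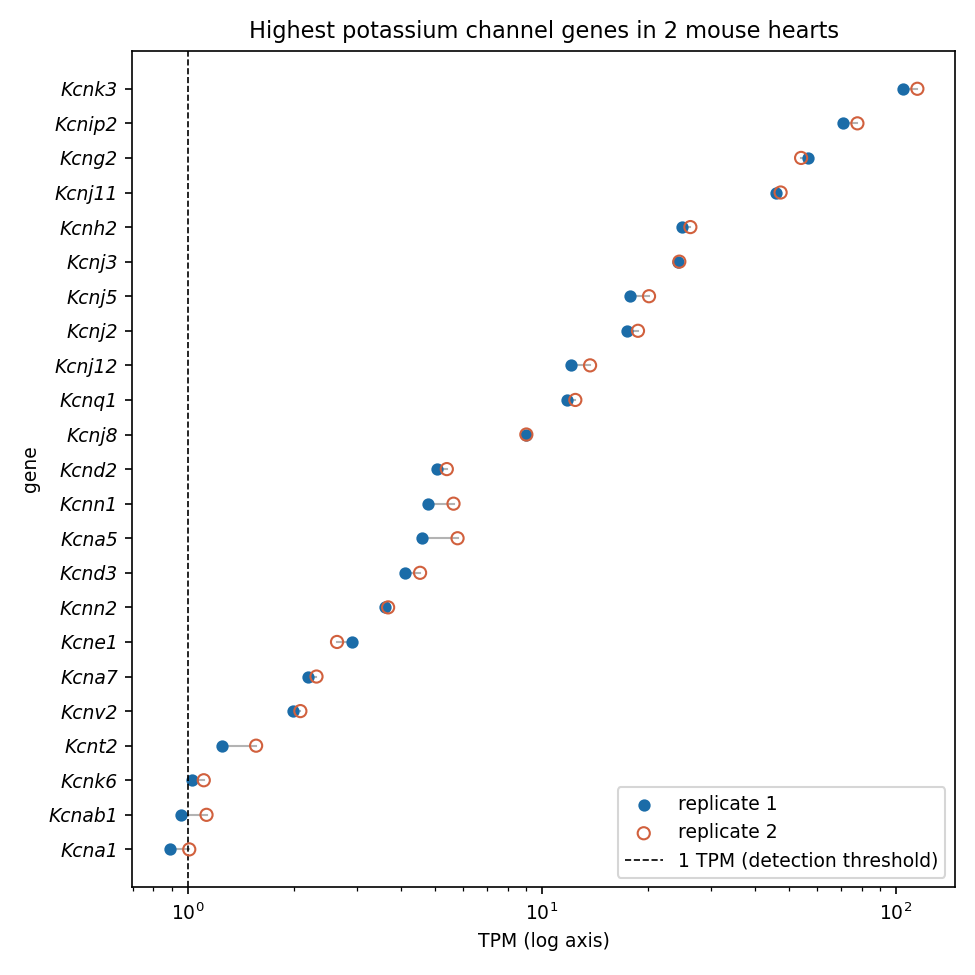
TPM of 23 potassium channel genes among those with the highest means, on a log axis, with a filled point for replicate 1 and an open point for replicate 2. The points of a gene lie close together compared with the range of levels, from 114.89 TPM for Kcnk3 down to the dashed line at 1 TPM, which Kcnab1 and Kcna1 straddle.

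The levels of the detected genes could be ordered in most places. Among the 21 neighbouring pairs in the order of their mean TPM, 17 did not overlap between mice, and 4 did. The 4 were Kcnj5 with Kcnj2, Kcnj12 with Kcnq1, Kcnd2 with Kcnn1, and Kcnn1 with Kcna5. Overlap here compares values across mice. Within each mouse Kcnj5 was above Kcnj2 (17.73 against 17.40 and 20.07 against 18.68 TPM). Kcnj12 was likewise above Kcnq1 (12.10 against 11.77 and 13.68 against 12.43 TPM). Kcnd2 with Kcnn1 and Kcnn1 with Kcna5 changed order between the mice. Non-overlap with 2 mice a gene describes these libraries and is no test.

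**Figure D2:**
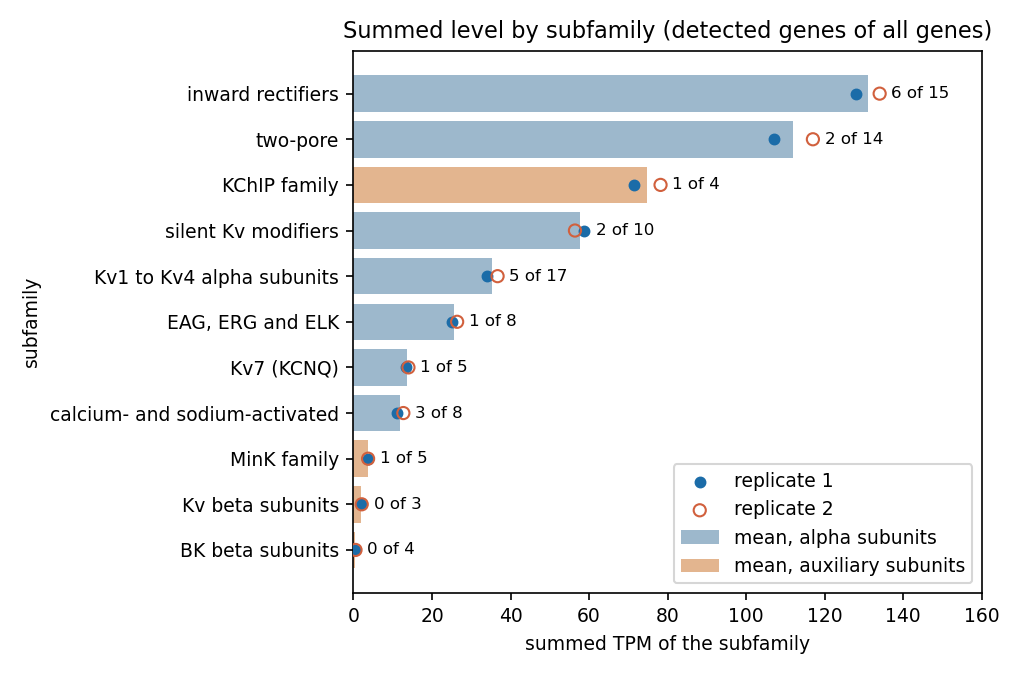
Summed TPM of each subfamily, with bars for the mean of 2 mice, points for each mouse, and the number of detected genes of all genes in the subfamily beside them. Inward rectifiers (128 and 134 TPM) and two-pore subunits (107 and 117 TPM) lead, and Kv beta and BK beta subunits have no detected gene.

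The inward rectifiers were the subfamily with the largest summed level. Their 15 genes summed to 128 and 134 TPM in replicates 1 and 2 (28.0% of the summed TPM of potassium channel genes), and 6 were detected. The detected genes fall into ATP-sensitive channels, acetylcholine-activated channels and strong rectifiers that hold the resting potential.

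Kcnj11, which encodes the main pore of the ATP-sensitive channel of heart muscle, lies at chr7:46093953-46100764 on the minus strand of mm10. It measured 45.94 and 47.22 TPM (46.6 ± 0.905, SD, n = 2). Kcnj8, the ATP-sensitive pore best known from vascular smooth muscle, measured 9.01 and 9.04 TPM. Kcnj11 was therefore higher than Kcnj8 in both mice, by 5.10-fold and 5.22-fold. The pores work with sulfonylurea receptors, which bind nucleotides. Of these, Abcc9 measured 87.51 and 89.92 TPM and Abcc8 16.59 and 16.27 TPM, so the pore with the higher level and the receptor with the higher level were not neighbours on the genome. Each pore gene lies beside a receptor gene on the same strand: Kcnj11 lies 3758 bases from Abcc8 on chromosome 7, and Kcnj8 lies 16247 bases from Abcc9 on chromosome 6. Within the first pair the pore was higher (46.6 against 16.4 TPM), and within the second the receptor was (88.7 against 9.02 TPM). Pericyte and smooth muscle markers were present in the same libraries, with 5 of 5 detected, a sum of 166 and 191 TPM, and Rgs5 highest at 106 TPM. Their part in the levels of Kcnj8 and Abcc9 was not tested.

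Kcnj3 and Kcnj5 encode the subunits that join into the acetylcholine-activated channel, best known from atrial and nodal cells. Kcnj3 measured 24.19 and 24.44 TPM and Kcnj5 17.73 and 20.07 TPM. Kcnj5 was the lower in each mouse, at 0.733 and 0.821 times Kcnj3. Atrial muscle markers were detected in 4 of 4 cases and summed to 1169 and 1177 TPM, from Sln at 29.8 TPM to Nppa at 698 TPM, and their part in these levels was not tested.

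Kcnj2 and Kcnj12 encode the strong inward rectifiers of ventricular muscle. Kcnj2 measured 17.40 and 18.68 TPM and Kcnj12 12.10 and 13.68 TPM, so the mice did not overlap between these genes. The ratio of Kcnj2 to Kcnj12 was 1.40 ± 0.0513 in TPM. In expected counts, where longer transcripts give more reads, it was 3.41. Kcnj4 and Kcnj14, further genes of this group, were not detected, at 0.30 and 0.42 TPM and at 0.29 and 0.34 TPM. The other inward rectifiers, Kcnj1, Kcnj6, Kcnj9, Kcnj10, Kcnj13, Kcnj15 and Kcnj16, ranged from 0 to 0.455 TPM. Some of these low genes sit beside high ones: Kcnj16 lies 38195 bases before Kcnj2, at 0.0200 against 18.0 TPM, and Kcnj1 lies 28142 bases from Kcnj5, at 0.00500 against 18.9 TPM.

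The two-pore subfamily was almost 1 gene. Kcnk3, at chr5:30588170-30625271 on the plus strand, encodes the acid-sensitive background channel TASK-1 and was the highest potassium channel gene in both mice, at 104.31 and 114.89 TPM. With a mean of 110 ± 7.48 TPM it held 23.4% of the summed TPM of the family and ranked 521st among genes with a protein_coding transcript. The only other detected member of the 14 was Kcnk6, at 1.03 and 1.11 TPM. Kcnk2, which encodes the stretch-sensitive leak channel TREK-1, measured 0.70 and 0.78 TPM, so Kcnk3 was 149-fold and 147-fold higher. In posterior mean TPM, another deposited level, Kcnk2 averaged 1.29 and Kcnk3 was 83.6-fold higher. Kcnk5 and Kcnk1 measured 0.245 and 0.105 TPM on average, and Kcnk9, a close relative of Kcnk3, had 0 counts in both libraries. Kcnk3 overlaps a gene on the opposite strand, Gm9899, which held 505 and 623 expected counts against 11479 and 13724 for Kcnk3. Whether counting used strand is not given in the sources used here, so these reads may be shared.

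Among the subunits of the fast transient outward current, which begins repolarisation in mouse ventricle, the auxiliary subunit stood far above the pores. Kcnip2, at chr19:45791839-45816061 on the minus strand, encodes the calcium-binding protein KChIP2 and measured 70.72 and 77.80 TPM. The pore genes Kcnd2 and Kcnd3 measured 5.06 and 5.39 TPM and 4.12 and 4.53 TPM. Kcnd2 was higher than Kcnd3 by 1.23-fold and 1.19-fold. The DPP-like partners of these pores, Dpp6 and Dpp10, had no more than 6 counts in either library. The other KChIP genes were low, with Kcnip3 at 0.58 and 0.41 TPM and Kcnip1 and Kcnip4 at 1 count each in both mice. Kcna4, the pore of the slow transient outward current, measured 0.42 and 0.39 TPM from 44 and 58 counts.

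Most Kcnip2 RNA carried the 96-base exon printed above. Of the TPM on its 9 protein-coding transcripts, 86.1% and 87.3% fell on transcripts with that exon (86.7 ± 0.853%, SD, n = 2), and 30.2% and 32.3% on transcripts with the 54-base exon. The second quantifier gave means of 83.5% and 40.6%. The dominant transcript was Kcnip2-202, which has the first exon and lacks the second, at 38.71 and 42.23 TPM. Kcnip2-209, which has both, followed at 20.87 and 24.81 TPM. Below these the quantifiers parted: Kcnip2-208, with neither exon, took 12.9% in the first transcript table and 1.37% in the second, and Kcnip2-206 took 0.148% and 12.4%. The Kcnd3 exon of 57 bases was on 21.8% and 31.8% of the protein-coding TPM (26.8 ± 7.09%), and on 28.6% by the second quantifier. By the second quantifier the mice had 79.3% and 87.8% for the Kcnip2 96-base exon and 24.9% and 32.3% for the Kcnd3 exon.

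**Figure D3:**
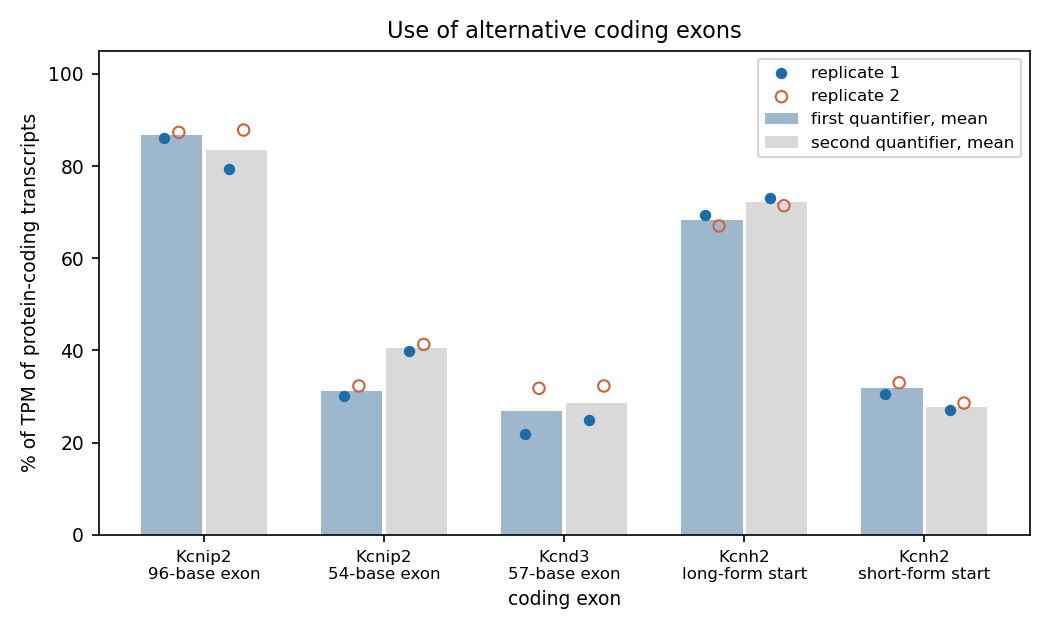
Share of a gene's protein-coding TPM on transcripts with each exon, with bars for the mean of 2 mice by the first and the second quantifier and points for each mouse. The Kcnip2 96-base exon is above 79% in each mouse by both quantifiers, and the long form of Kcnh2 exceeds the short form in each.

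The voltage-gated pores of the later currents were led by Kcnh2. This gene encodes the ERG channel of the rapid delayed rectifier, and measured 24.83 and 26.26 TPM. Its 2 protein-coding transcripts start at the exons printed above. The long form held 69.4% and 67.0% of their TPM and the short form 30.6% and 33.0%, and the second quantifier gave means of 72.2% and 27.8%. The other 7 genes of the EAG, ERG and ELK subfamily were not detected, and the subfamily sum of 25.7 ± 1.03 TPM was nearly all Kcnh2. Kcnq1, the pore of the slow delayed rectifier, measured 11.77 and 12.43 TPM. Its partner Kcne1 measured 2.91 and 2.64 TPM, so that Kcnq1 was 4.04-fold and 4.71-fold higher. The ratio was 6.15 by the second quantifier and 9.11 in expected counts, with 125 and 127 counts for Kcne1. Kcne2, a MinK relative that can join Kcnh2, had 0 and 1 counts. It lies 47852 bases from Kcne1. Kcnq1 overlaps the antisense RNA Kcnq1ot1, which had 910 and 762 counts against 1021 and 1275 for Kcnq1, and reads in the overlap may be shared.

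Kcna5 encodes a pore of the slowly inactivating delayed rectifiers and measured 4.60 and 5.78 TPM. Of the 17 Kv1 to Kv4 genes 5 were detected, and the lowest of these was Kcna7, at 2.18 and 2.31 TPM. Kcna5 lies in a row with Kcna1 and Kcna6 on chromosome 6, on the same strand. The mean level was 5.19 TPM for Kcna5 and 0.410 TPM for Kcna6, and Kcna1 between them measured 0.89 and 1.01 TPM.

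A silent subunit gene was the third highest of the family. Kcng2, at chr18:80294546-80364254 on the minus strand, encodes a modifier of other Kv channels and measured 56.32 and 53.95 TPM (55.1 ± 1.68, SD, n = 2). Of its TPM 84.4% lay on Kcng2-201, whose coding sequence has 1440 bases. Kcng2 overlaps D330025C20Rik on the opposite strand, which had 168 and 203 counts against 3857 and 4639. The other detected silent subunit gene was Kcnv2, at 1.98 and 2.08 TPM. The median of the 10 silent subunit genes was 0.0275 TPM, and 2 of them had no counts.

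Calcium- and sodium-activated channels summed to 11.2 and 12.7 TPM. The small-conductance genes Kcnn1 and Kcnn2, which open on calcium alone, measured 4.78 and 5.63 TPM and 3.61 and 3.68 TPM. Kcnn3 and Kcnn4 were below the threshold at 0.775 and 0.415 TPM. Kcnt2, a sodium-activated channel gene, measured 1.25 and 1.56 TPM. Kcnma1, the large-conductance (BK) pore, measured 0.22 and 0.30 TPM, and Kcnmb1, its smooth muscle beta subunit, 0.28 and 0.43 TPM from 36 and 62 counts. Of the 4 BK gamma subunit genes, Lrrc52 was the one detected, at 1.11 and 1.99 TPM from 36 and 73 counts. Kcnmb1 lies inside Kcnip1 on the opposite strand.

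Auxiliary subunits other than Kcnip2 and Kcne1 were not detected. Kv beta subunits, which bind Kv1 pores in the cytoplasm, were closest to the threshold, with Kcnab1 at 0.96 and 1.13 TPM and Kcnab2 at 0.90 and 0.88 TPM. Their order depended on the level used: the ratio of Kcnab1 to Kcnab2 was 1.18 ± 0.154 in TPM of the first quantifier, 0.586 in its posterior mean TPM and 0.600 in TPM of the second. Across the 13 pairs of related genes or partner subunits compared, the first-named gene was higher in both mice in 11. The exceptions were Kcnj5 over Kcnj3 and Kcnma1 over Kcnmb1. The number was 10 with the second quantifier and 10 in expected counts. Which gene is named first was set when the pairs were listed, so these numbers describe the list and are no test. The ratio of Kcnma1 to Kcnmb1 was 0.742 ± 0.0623 in TPM and 2.22 in posterior mean TPM, so its order depended on which deposited level was used.

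Of 18 partner genes outside the family, 12 were detected. Among scaffolds and trafficking proteins 5 of 6 were, with Ank2, which anchors membrane proteins, at 106.31 and 111.15 TPM. Cav3, Dlg1 and Akap9 had means of 29.8, 22.7 and 16.7 TPM, and Kcnrg, which restrains Kv assembly, had 7 and 3 counts. All 4 transcription factors listed as regulators of potassium channel genes were detected. Klf15 measured 22.14 and 24.81 TPM, Irx3 11.94 and 12.25, Irx4 12.31 and 11.84, and Irx5 4.00 and 4.41.

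The quantifiers gave the same dominant transcript, by the mean of both mice, for all 22 detected genes, where 22.1% of 10946 detected protein-coding genes had a different one. In replicate 1 taken alone Kcnip2 and Kcne1 had a different one, and in replicate 2 alone Kcnt2 did. No detected potassium channel gene had most of its TPM on transcripts not typed protein_coding, against 7.22% of 10961 genes. The highest such share was 24.1%, for Kcnn2. In 15 of the 22 genes at least 80% of the TPM lay on the coding sequence of the dominant transcript. These include the 5 genes with 1 transcript, whose share is 100% by definition. For this count no share over all genes was computed. Some transcripts divided the quantifiers. Among those with a short coding sequence, Kcnj8-201 took 31.9% against 3.28% by the second, Kcnn1-203 27.7% against 0%, and Kcng2-202 14.2% against 0%. Among longer ones, Kcnn2-203 took 15.8% against 1.08%, and Kcnq1-202 took 1.16% against 15.1%.

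Gene levels were close between quantifiers. No detected potassium channel gene was over 2-fold apart, nor over 1.5-fold, against 2.33% and 12.2% of 10961 genes. Over the 22, the second quantifier ran from 0.879 times the level of the first for Kcne1 to 1.35 times for Kcnk6. It put 5 more genes above the threshold. Among them, Kcna1 had 1.01 and 1.11 TPM there, and Kcnab1 1.03 and 1.19. Kcnab2 had 1.21 and 2.50, and Kcnq5 1.13 and 1.24 TPM. With the first quantifier, Kcnab1 and Kcna1 were above 1 TPM in 1 mouse, while Kcnab2 and Kcnq5 were below it in both.

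**Figure D4:**
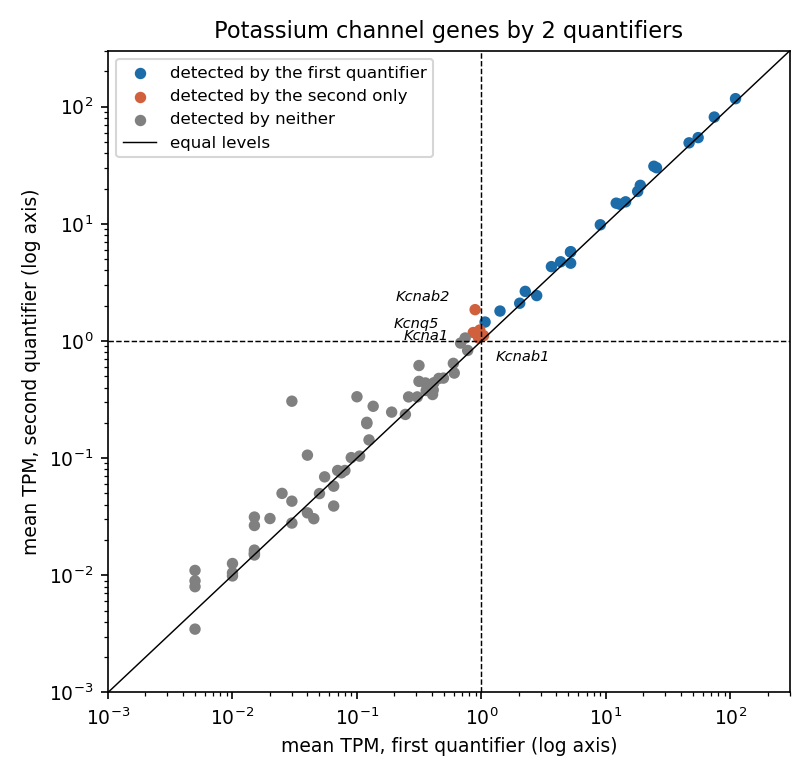
Mean TPM of the 80 potassium channel genes with a level above 0 by both quantifiers, on log axes, with the line of equal levels and dashed lines at 1 TPM. Detected genes lie along the line, the 5 genes in orange, 4 of them named, reached 1 TPM in both mice by the second quantifier only, and the genes below about 0.1 TPM scatter more widely.

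Between the mice the levels of the family differed little, as did those of all genes with as many counts. Of the 34 genes that averaged 50 or more expected counts, none was past 2-fold and none past 1.5-fold after TMM scaling, where 0.570% and 2.10% of 12454 genes of that depth were. The log2 ratios of replicate 2 to replicate 1 ran from -0.31 to 0.28, the highest being Kcna5. The median size of the ratio was 0.082, against 0.078 for all such genes. The 95% counting interval lay above 0 in 4 of the 34 (11.8%), against 11.0% of all such genes, and below 0 in none, against 8.62%. The 4 were Kcna5 (0.28, 0.09 to 0.47), Kcnj5 (0.11, 0.03 to 0.19), Kcnip2 (0.10, 0.04 to 0.15) and Kcnj11 (0.08, 0.02 to 0.14). Of the 34 genes 24 were higher in replicate 2 and 10 in replicate 1, where 52.0% of all such genes were higher in replicate 2, and with spike-in scaling these were 29 and 5. Spike-in scaling moved the median of all such genes to 0.18 and that of the potassium channel genes to 0.22.

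**Figure D5:**
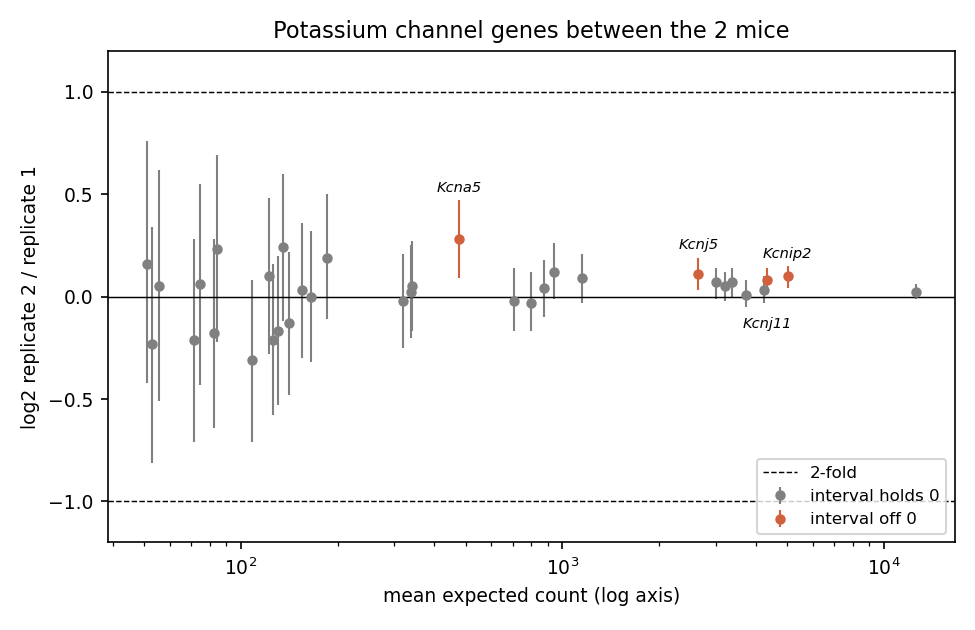
Log2 ratio of replicate 2 to replicate 1 after TMM scaling against the mean expected count (log axis) of the 34 potassium channel genes with at least 50 counts, with 95% counting intervals. All points lie between the dashed 2-fold lines, and the 4 named genes have intervals that do not hold 0.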

How the data were processed

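Total RNA sequencing of 2 heart libraries was used. For genes and for transcripts the authors deposited expected counts together with TPM, FPKM and a posterior mean TPM. Another transcript table, with estimated counts and its own TPM, was also deposited. These names stand in the column headers. Build mm10 and GENCODE M21 come from the deposited descriptions. Which tools made them is not given in the sources used here; column names are those RSEM writes (called the first quantifier here) and those kallisto writes (the second). Strand of counting is not given either.

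The genes, lists and pairs were chosen with earlier results of these data known. Genes named are those with a mean of at least 5 TPM, the members of the current lists, the highest of each subfamily, those past 2-fold between mice, those changing sides of 1 TPM between quantifiers, those of at least 5 TPM with a different dominant or mostly noncoding transcript, and the partner genes. Others named as neighbours or examples were chosen after their values were seen. Some genes under this rule are not reported here, though they remain in counts and sums. Detection meant 1 TPM in both mice. For ratios, counts were rounded and scaled by TMM (edgeR 4.0.16, R 4.3.3) with a prior count of 0.5. Counting intervals are Clopper-Pearson (exact) at 95%. The ratios were tested on simulated counts. Spike-ins and entries without a gene (3 and 2 counts) were left out of gene values. Alternatives were DESeq2 1.42.0 size factors, total and spike-in scaling, other thresholds, posterior mean TPM, FPKM, the second quantifier and each mouse alone.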

Additional observations from a re-analysis of the deposited data

Results flagged for a closer look

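A pair of genes match the symbol pattern but have no protein_coding transcript, and lie outside the comparisons above, yet had more than the 3 counts that a count of 0 allows in both libraries. Kcnq1ot1, the antisense RNA of the Kcnq1 locus, had 910 and 762 expected counts, at least 762 in each library, and 0.32 and 0.23 TPM. Its log2 ratio of replicate 2 to replicate 1 was -0.49, with a counting interval from -0.63 to -0.35, while that of Kcnq1 was 0.09. Kcnd3os, antisense to Kcnd3, had 15 and 7 counts. With 2 mice no library could be tested as an outlier.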

How the results depend on the processing

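The count of 22 detected genes was between 19 and 32 with the second quantifier, posterior mean TPM, thresholds of 0.5 or 2 TPM and each mouse alone. It was 34 with TPM rescaled to nuclear protein-coding genes and 70 with any level above 0. The share of other genes was computed at the main threshold only, so these counts do not compare the family with them. The summed level of 468 TPM was 512 by the second quantifier, 1199 when rescaled to nuclear protein-coding genes and 370 in FPKM. The count past 2-fold between mice was 0 with DESeq2, total and spike-in scaling, a minimum of 100 counts, a prior count of 2 and the second quantifier. It was 2 with a minimum of 10 counts (Kcna3 with 16 and 6 counts, Kcnc1 with 34 and 19) and 15 with no minimum. For these minimums no share over all genes was computed. A ratio of 2 mice cannot be formed without either, so no mouse was left out there. With no minimum level, where no share over all genes was computed, 18 of 80 genes had a different dominant transcript by the 2 quantifiers. Within single mice 1 to 2 did: Kcnt2 without replicate 1, and Kcnip2 and Kcne1 without replicate 2. Genes with mostly noncoding TPM numbered 0 to 1 in single mice, Kcnab1 without replicate 1 at 55.8%. The ratio of Kcnab1 to Kcnab2 turned from 1.18 to 0.600 with the second quantifier and to 0.586 in posterior mean TPM. The ratio of Kcnma1 to Kcnmb1, 0.742, was 2.22 in posterior mean TPM. The causes were not tested. No paired analysis was possible because there is 1 group. Levels below 0.1 TPM rest on few counts and could not be ordered at this depth.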
